A study of Mus musculus with 8 samples.

Results

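The genes followed here encode the metalloproteases outside the ADAM families that act on matrix and on the cell surface, together with their inhibitors. They were taken from the raw count table by gene symbol: the meprin genes *Mep1a* and *Mep1b*, the matrix metalloprotease genes *Mmp7*, *Mmp14* and *Mmp15*, and the inhibitor genes *Timp1*, *Timp2*, *Timp3* and *Reck*. All 9 were found among 29234 gene symbols. RNA was sequenced from wild-type mouse colon organoids, which are epithelial structures grown from crypts in Matrigel, a basement membrane extract that itself holds laminin and collagen IV. In the FS_DSS group (4 libraries) the organoids received microbe-free fecal supernatant of mice that had been given dextran sodium sulfate, a compound that injures the colon epithelium, and in the FS_CTR group (4 libraries) that of healthy mice. Both groups carried the WT genotype, were grown with EGF, R-spondin, noggin and Wnt-3a, and received 4 mg/mL of supernatant, and the labels give a time of 5 days. The pellets had been pooled before the supernatants were made and no source says whether the 4 libraries of a group came from separate cultures or animals, so *p* values measure only the spread between these libraries, which may be technical.

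Zinc metalloproteases of these families are made as inactive proenzymes, and a stretch at their start has to be removed before they cut. Meprins are astacin proteases of the brush border of intestinal epithelium. Their alpha and beta subunits join into complexes, and the beta subunit is anchored in the membrane. Between them, meprins are known for cutting mucins, cytokines and basement membrane proteins. Matrix metalloproteases are either secreted, like matrilysin (*Mmp7*), or anchored in the membrane, like MT1-MMP (*Mmp14*) and MT2-MMP (*Mmp15*). Tissue inhibitors of metalloproteases (TIMPs) block the active site, and TIMP2 also bridges MT1-MMP and the proenzyme of gelatinase A on the cell surface. RECK is a membrane-anchored protein that restrains several of these proteases.

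*Mmp7*, *Mmp14* and *Timp2* stood out by the thresholds described below, *Mmp7* on the lower side and the other 2 on the higher side. Bases before or at their RefSeq start sites are shown for that reason. RefSeq promoter windows of 300 bases (250 before and 50 after the start, table of an older build) were matched for 8 of the 9 genes, and those shown were found once each, letter for letter, in the GRCm39 genome. Both strands were searched for 3 motifs, TGANTCA for AP-1 factors, TATAAA for the core promoter element of that name, and GGGCGG for Sp1-type factors, which is the GC box. None of the 3 contains another, and the matches shown do not overlap. Capitals mark the matches. *Mmp7* is shown for the 250 bases before its start (chr9:7691841-7692090, plus strand). In *Mmp14* and *Timp2* the GENCODE annotation starts first exons further upstream, and 177 and 234 of these 250 bases are exonic, so 30 bases around the GC boxes are shown (chr14:54669027-54669056, plus strand, and chr11:118246257-118246286, minus strand). The *Mmp14* stretch includes its start, at position 54669055, and the base after it.
Mmp7: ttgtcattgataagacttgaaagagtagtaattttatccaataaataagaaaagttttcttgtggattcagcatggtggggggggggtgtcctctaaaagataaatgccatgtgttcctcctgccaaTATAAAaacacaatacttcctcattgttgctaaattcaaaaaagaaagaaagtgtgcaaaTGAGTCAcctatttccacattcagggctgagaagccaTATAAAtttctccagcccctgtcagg
Mmp14: agggcattgGGGCGGGGGCGGaggagaggc
Timp2: ctggggagggctGGGCGGcgcggcgcggga

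The *Mmp7* window held an AP-1 match that begins 63 bases before the start and TATA matches that begin 123 and 26 bases before it, and no GC box. *Mmp14* held 2 GC boxes side by side, which begin 19 and 13 bases before the start, and *Timp2* held 1, which begins 37 bases before it. Among all 32851 promoter windows of 300 bases, 7.81% held TGANTCA, 13.6% held TATAAA and 35.7% held GGGCGG on either strand. Among the 8 matched genes, AP-1 and TATA matches were found in *Mmp7* alone, GC boxes were found in *Mmp14*, *Mmp15*, *Timp1*, *Timp2*, *Timp3* and *Reck*, and *Mep1a* held none of the 3 motifs. A match here describes letters in a window and does not show that a factor binds there.

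Counts assigned to genes came to between 26363942 and 27035243 per FS_DSS library and between 18968416 and 26707846 per FS_CTR library. Among them FS_CTR replicates 3 and 4 were unlike the rest: the mitochondrial gene *mt-Co1* took 12.3% to 15.9% of their counts, against 1.23% to 3.20% in the other 6 libraries, and their TMM factors, which correct library size for composition, were 0.641 to 0.678, against 1.13 to 1.18. Epithelial markers (*Epcam*, *Cdh1*, *Krt8* and others, 7 of 7 measured) summed to 16280 to 18560 CPM (counts scaled to a common library size) under FS_DSS and 14460 to 18390 CPM under FS_CTR. Fibroblast markers (8 genes, led by *Pdgfrb*) summed to 1.82 to 2.98 CPM under FS_DSS and 2.34 to 3.14 CPM under FS_CTR, and smooth muscle markers (5 genes, led by *Acta2*) to 0.361 to 1.66 CPM under FS_DSS and 0.657 to 4.36 CPM under FS_CTR. Endothelial markers (5 genes, led by *Vwf*) summed to 1.67 to 2.85 CPM under FS_DSS and 2.27 to 3.68 CPM under FS_CTR, and immune markers (7 genes, led by *Csf1r*) to 7.29 to 17.2 CPM under FS_DSS and 7.42 to 15.5 CPM under FS_CTR. All 4 lists lay far below the epithelial sum in every library.

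Of the 9 genes, 8 had enough counts for edgeR's filter, which kept 12729 genes for testing. *Reck* had 2, 0, 2 and 0 counts in FS_DSS replicates 1 to 4 and 1, 2, 2 and 0 counts in FS_CTR replicates 1 to 4. That is too few for a test, and no fold change is given. A count of 0 allows up to 3 counts, which is 0.0951 to 0.247 CPM in these libraries, and *Reck* lay within that limit in all 8.

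With edgeR's quasi-likelihood test and Benjamini-Hochberg adjustment over all genes tested, 0 of the 8 passed an adjusted *p* of 0.05 in either direction, and adjusted *p* ran from 0.0895 to 0.674. The background was the same, with 0% of all genes called higher and 0% called lower, and the lowest adjusted *p* of any gene was 0.0666 by edgeR. Without adjustment 3 of the 8 had *p* under 0.05, *Mmp14* and *Timp2* higher and *Mmp7* lower under FS_DSS, where 10.6% of all genes were higher and 13.4% lower at that level. The same 3 met the thresholds used in the study, an unadjusted *p* under 0.05 with a Log2(FC) of at least 0.58 in size, which 2.56% of all genes met on the higher and 6.46% on the lower side (326 and 822 genes). With library totals alone as the scaling these thresholds were met by 1256 genes on the higher and 144 on the lower side, and *Mmp15* joined *Mmp14* and *Timp2* with a Log2(FC) of 0.60. *Mmp14* and *Timp2* were also the ones whose FS_DSS and FS_CTR values did not overlap, which held for 7.41% of all genes on the higher and 7.58% on the lower side. As another tool, DESeq2 called all 3 at an adjusted *p* under 0.05, where it called 5.04% of all genes higher and 6.22% lower, and limma-voom called 0.

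**Figure D1:**
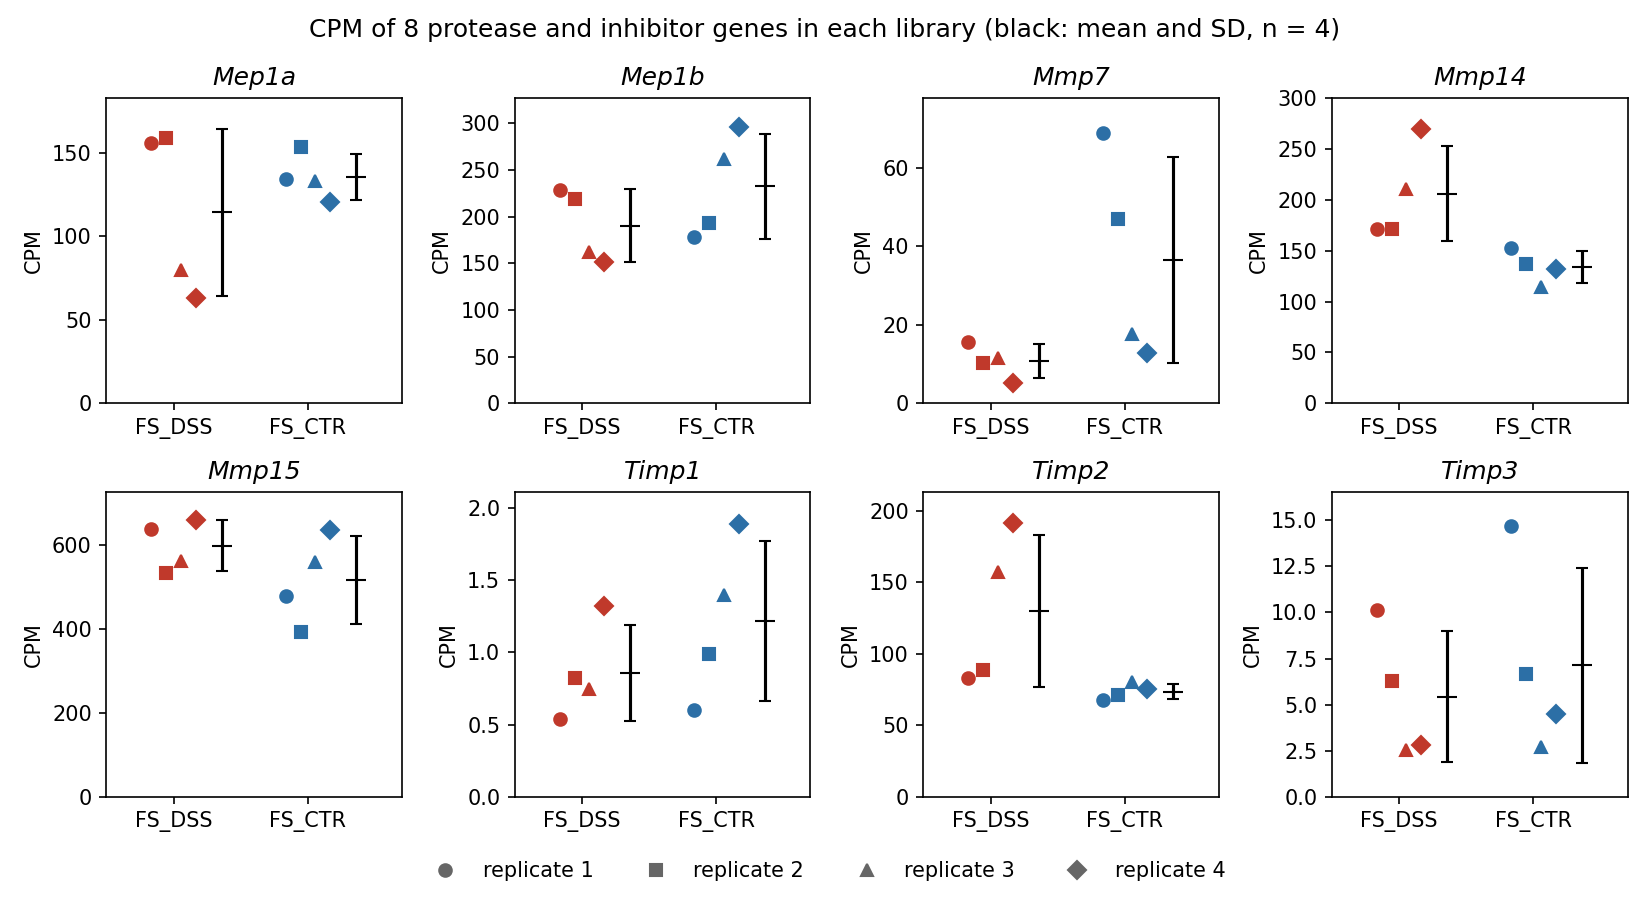
CPM (vertical axes, from 0) of the 8 tested genes in the 4 FS_DSS libraries (red, left) and the 4 FS_CTR libraries (blue, right), with symbols for the replicate number and black bars for the mean and SD (n = 4). In *Mmp14* and *Timp2* all red points lie above all blue points, and in *Mmp7* the lowest blue point, 12.7 CPM, lies below the highest red point, 15.7 CPM.

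*Mmp14* encodes MT1-MMP, a membrane-anchored collagenase that also activates progelatinase A. Its level was 171, 172, 211 and 270 CPM in FS_DSS replicates 1 to 4 and 153, 137, 115 and 132 CPM in FS_CTR replicates 1 to 4. Every FS_DSS library lay above every FS_CTR library, and FS_DSS replicates 3 and 4 lay furthest up. The means were 206 ± 46.6 CPM under FS_DSS and 134 ± 15.7 CPM under FS_CTR (SD, n = 4), which is a Log2(FC) of 0.62 (standard error 0.16, adjusted *p* = 0.0895, edgeR). DESeq2 gave 0.62 with an adjusted *p* of 0.0101. Leaving out FS_CTR replicate 1 gave 0.69 with an edgeR adjusted *p* of 0.0485, and no other omission of 1 library brought any of the 8 genes past 0.05. In that fit 3.9% of all genes were called higher and 5.34% lower. Leaving out FS_DSS replicate 4 gave 0.46, FS_CTR replicate 3 gave 0.55 and FS_CTR replicates 3 and 4 together gave 0.51, all below the fold threshold of the study.

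*Timp2* encodes the inhibitor that also serves as the bridge between MT1-MMP and progelatinase A. FS_DSS replicates 1 to 4 had 83.1, 88.6, 157 and 191 CPM of it, and FS_CTR replicates 1 to 4 had 67.5, 71.4, 80.4 and 75.3 CPM. The groups did not overlap, although FS_DSS replicates 1 and 2 lay close to the FS_CTR libraries and FS_DSS replicates 3 and 4 well above them. The means were 130 ± 52.9 CPM under FS_DSS and 73.6 ± 5.51 CPM under FS_CTR (SD, n = 4), a Log2(FC) of 0.82 (standard error 0.26, adjusted *p* = 0.115, edgeR), and DESeq2 gave 0.83 with an adjusted *p* of 0.025. Without FS_DSS replicate 4 the Log2(FC) was 0.58, just under the fold threshold of the study before rounding, so that with this library left out neither *Mmp14* nor *Timp2* met it. Without FS_CTR replicates 3 and 4 the Log2(FC) of *Timp2* was 0.91.

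*Mmp7* encodes matrilysin, a small secreted protease without a hemopexin domain, known in the mouse small intestine for cutting prodefensins in Paneth cells. FS_DSS replicates 1 to 4 had 15.7, 10.2, 11.6 and 5.26 CPM of it, and FS_CTR replicates 1 to 4 had 68.8, 46.8, 17.7 and 12.7 CPM. All FS_DSS libraries were low, while the FS_CTR libraries split into a high pair (replicates 1 and 2) and a low pair (replicates 3 and 4), of which replicate 3 lay just above all FS_DSS libraries and replicate 4 within their range. The means were 10.7 ± 4.30 CPM under FS_DSS and 36.5 ± 26.3 CPM under FS_CTR (SD, n = 4), a Log2(FC) of -1.78 (standard error 0.54, adjusted *p* = 0.109, edgeR). DESeq2 gave -1.77 with an adjusted *p* of 0.00782. With FS_CTR replicates 3 and 4 left out the Log2(FC) was -2.44, and with FS_CTR replicate 1 left out it was -1.28, so its size rested on which FS_CTR libraries were used while its direction did not change under any omission made.

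**Figure D2:**
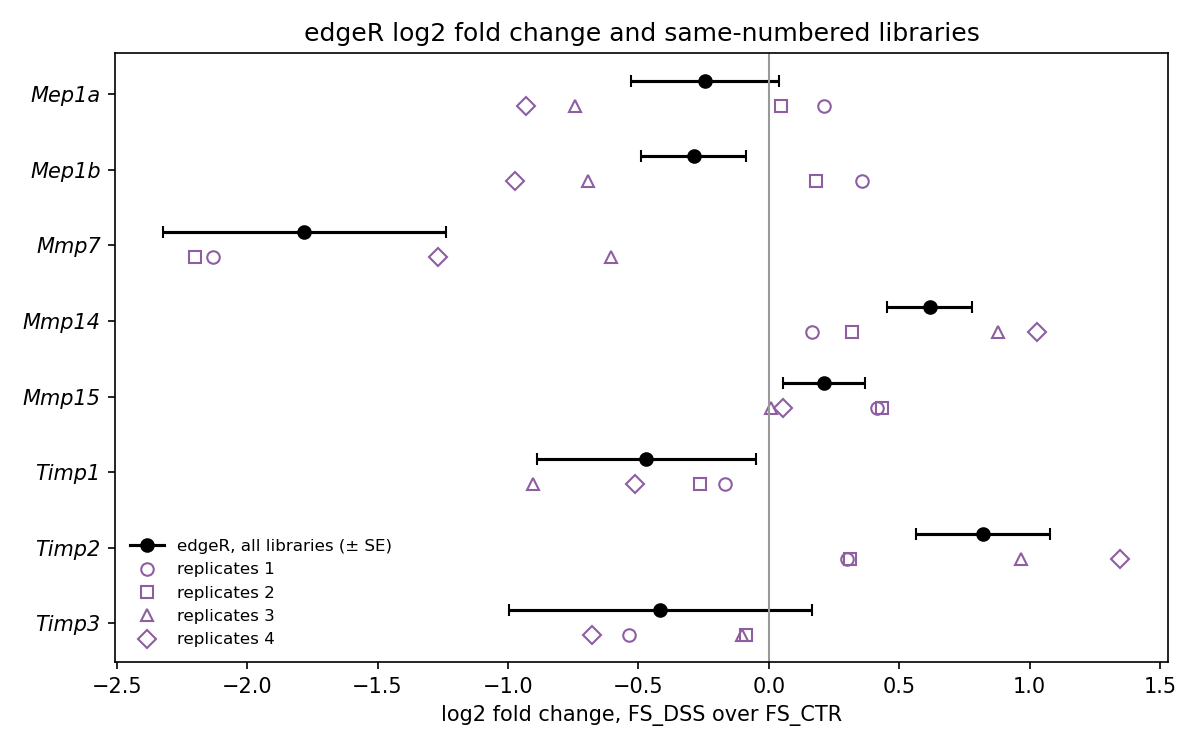
Log2(FC) of FS_DSS over FS_CTR (horizontal axis) for each of the 8 tested genes, as edgeR's estimate over all libraries with its standard error (black) and as the difference of log2 CPM between same-numbered libraries (open symbols). All 4 symbols lie right of 0 for *Mmp14*, *Mmp15* and *Timp2* and left of 0 for *Mmp7*, *Timp1* and *Timp3*, and both meprins have symbols on either side.

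The remaining membrane-type protease, *Mmp15* (MT2-MMP), had 638, 532, 563 and 660 CPM in FS_DSS replicates 1 to 4 and 478, 394, 560 and 635 CPM in FS_CTR replicates 1 to 4. FS_CTR replicates 3 and 4 lay within the FS_DSS range and replicates 1 and 2 below it. The means were 598 ± 60.4 CPM under FS_DSS and 517 ± 104 CPM under FS_CTR (SD, n = 4), with a Log2(FC) of 0.21 (standard error 0.16, adjusted *p* = 0.424, edgeR). Without FS_CTR replicates 3 and 4 the Log2(FC) was 0.46. The groups then did not overlap, which is reached more easily with fewer FS_CTR libraries. The share of all genes for which this held was not counted.

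The meprins did not pass the test, and in both genes the FS_DSS and FS_CTR values overlapped. *Mep1a*, which encodes the alpha subunit, had 156, 159, 79.7 and 63.3 CPM in FS_DSS replicates 1 to 4 and 135, 154, 133 and 121 CPM in FS_CTR replicates 1 to 4. FS_DSS replicates 1 and 2 lay above all FS_CTR libraries and FS_DSS replicates 3 and 4 below all of them. The Log2(FC) of *Mep1a* was -0.25 (standard error 0.28, adjusted *p* = 0.607, edgeR). *Mep1b*, which encodes the membrane-anchored beta subunit, had 228, 219, 162 and 151 CPM in FS_DSS replicates 1 to 4 and 178, 193, 262 and 296 CPM in FS_CTR replicates 1 to 4. Here too FS_DSS replicates 3 and 4 were the lowest libraries of all, and FS_CTR replicates 3 and 4 were the highest. The Log2(FC) of *Mep1b* was -0.29 (standard error 0.20, adjusted *p* = 0.393, edgeR), and without FS_CTR replicates 3 and 4 it was 0.03. Between same-numbered libraries, FS_DSS over FS_CTR, the log2 difference of *Mep1a* was 0.21, 0.05, -0.74 and -0.93 for numbers 1 to 4 and that of *Mep1b* was 0.36, 0.18, -0.69 and -0.97. Both meprins thus lay higher under FS_DSS in numbers 1 and 2 and lower in numbers 3 and 4, while *Mmp14* (0.17, 0.32, 0.88 and 1.03) and *Timp2* (0.30, 0.31, 0.97 and 1.35) were higher in all 4, with the larger differences in the same numbers 3 and 4.

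Markers of absorptive colonocytes, the cells whose brush border carries meprins, were set beside these values. Of 9 genes (*Car1*, *Car4*, *Slc26a3*, *Aqp8* and others), 2 had a positive and 7 a negative Log2(FC), with a median of -0.45 against -0.021 over all genes tested. That median was -0.13 without FS_CTR replicates 3 and 4, -0.19 without FS_CTR replicate 4 alone and 0.03 with library totals alone as the scaling, which moved that of all genes to 0.31. Their summed level was 3651 to 6056 CPM under FS_DSS and 4482 to 7777 CPM under FS_CTR, led by *Car1* at a mean of 3856 CPM over all libraries. The lowest sum was in FS_DSS replicate 4 and the highest in FS_CTR replicate 4, as for *Mep1b*. *Mep1a* was also lowest in FS_DSS replicate 4 (63.3 CPM), but it was highest in FS_DSS replicate 2 (159 CPM). At the thresholds of the study *Guca2b*, which encodes uroguanylin (Log2(FC) of -0.99), and *Slc26a3*, the chloride-bicarbonate exchanger gene (-0.83), were lower and none higher. Over all genes 6.46% were lower and 2.56% higher at these thresholds. The phosphate transporter gene *Slc20a1* (0.27) had an unadjusted *p* under 0.05 on the higher side without reaching the fold threshold. Without FS_CTR replicates 3 and 4 *Guca2b* and, at -1.45, *Aqp8* met the thresholds on the lower side. In RNA from whole organoids, fewer cells of a type and less RNA per cell cannot be told apart, and the part of absorptive cells in the meprin values was not tested. Small intestinal markers (8 genes, led by *Alpi*) summed to 348 to 565 CPM under FS_DSS and 462 to 904 CPM under FS_CTR, and the apolipoprotein genes *Apoa1* (-2.25) and *Apoa4* (-2.49) met the same thresholds on the lower side. These values rested on FS_CTR replicates 3 and 4, without which they were 0.03 and -0.44, and the median of the list was -0.01 in place of -0.59. In the other marker lists the endothelial gene *Pecam1* (-0.86) and the myeloid gene *Itgam* (-1.05) were lower at these thresholds, both at group means below 1 CPM, although *Pecam1* (-0.49) did not meet them without FS_CTR replicates 3 and 4, and *Cdh1*, the E-cadherin gene (0.51), had an unadjusted *p* under 0.05 on the higher side.

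Markers of Paneth cells were set beside *Mmp7*. Of 8 listed genes 7 were in the table and 5 passed the filter, and all 5 were lower under FS_DSS at the thresholds of the study, which 6.46% of all genes were. *Lyz1*, the Paneth lysozyme gene and the most abundant of them, had 8.25, 2.43, 11.5 and 1.19 CPM in FS_DSS replicates 1 to 4 and 201, 59.6, 8.23 and 3.32 CPM in FS_CTR replicates 1 to 4. As with *Mmp7*, FS_CTR replicates 1 and 2 were the highest libraries. FS_CTR replicates 3 and 4 both lay within the FS_DSS range of *Lyz1*, while for *Mmp7* only FS_CTR replicate 4 did. *Ang4*, an angiogenin of Paneth and goblet cells (Log2(FC) of -1.46), *Itln1*, which encodes intelectin (-2.85), and *Defa24*, an alpha-defensin gene (-3.63), did not overlap between the groups. *Defa17*, another alpha-defensin gene, did not overlap either. It had 1, 0, 0 and 0 counts in FS_DSS replicates 1 to 4 and 23, 12, 18 and 20 counts in FS_CTR replicates 1 to 4. Over all genes 7.58% were lower without overlap. *Mptx2*, a defining Paneth gene of the small intestine, was at 0 in all libraries. Within FS_CTR, *Ang4* (60.9 CPM), *Itln1* (14.2 CPM) and *Defa17* (1.48 CPM) were highest in replicate 3, where *Mmp7* was in its low pair. *Defa24* (11.3 CPM) was highest in replicate 1, as were *Lyz1* and *Mmp7*. The 7 genes summed to 22.7, 17.9, 40.5 and 12.6 CPM in FS_DSS replicates 1 to 4 and to 264, 105, 91.1 and 55.6 CPM in FS_CTR replicates 1 to 4. *Lyz1* alone made up 201 of the 264 CPM in FS_CTR replicate 1. Alpha-defensin genes are near copies of one another, so their counts are uncertain one by one. Whether Paneth cells were present, and whether a change in cells that express the listed genes accounts for the *Mmp7* values, was not tested.

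**Figure D3:**
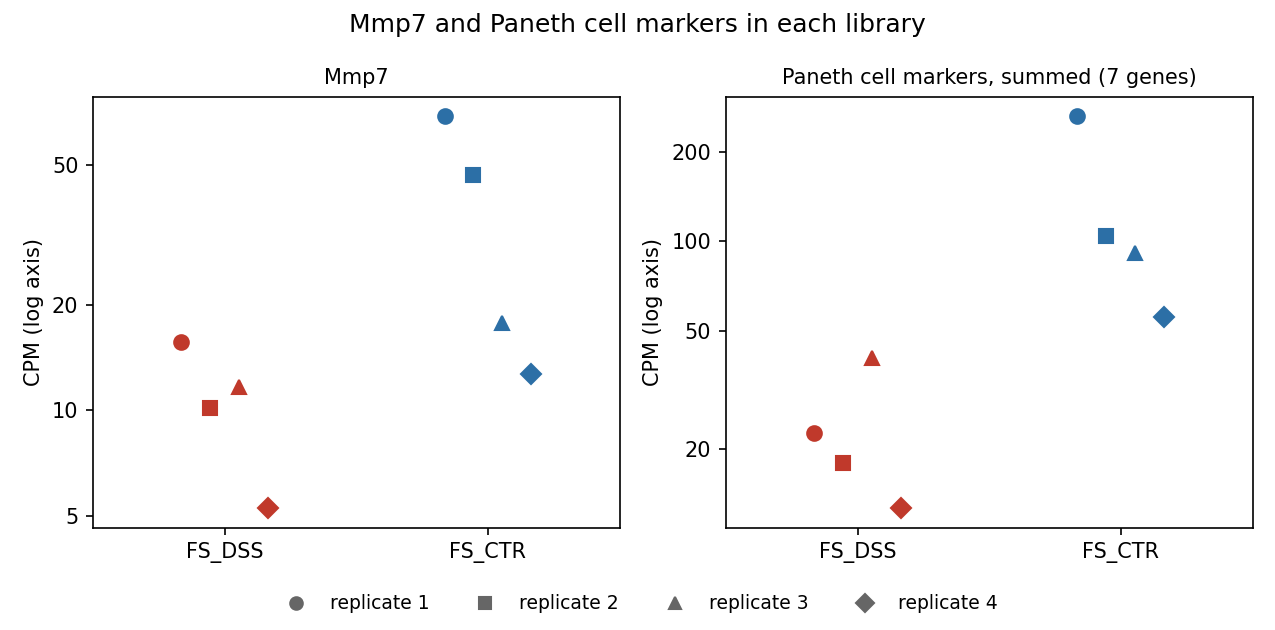
*Mmp7* (left) and the sum of 7 Paneth cell marker genes (right) in CPM on logarithmic axes, for the 4 FS_DSS libraries (red) and the 4 FS_CTR libraries (blue), with symbols for the replicate number. The highest library is FS_CTR replicate 1 and the lowest FS_DSS replicate 4 in both panels, at 68.8 and 5.26 CPM for *Mmp7* and at 264 and 12.6 CPM for the sum.

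The other TIMP genes were far less abundant than *Timp2*. *Timp1*, which encodes a secreted inhibitor induced by inflammatory signals, had 16, 25, 23 and 41 counts in FS_DSS replicates 1 to 4 and 19, 30, 17 and 29 counts in FS_CTR replicates 1 to 4. In CPM this was 0.857 ± 0.334 under FS_DSS and 1.22 ± 0.552 under FS_CTR (SD, n = 4), with a Log2(FC) of -0.47 (standard error 0.42, adjusted *p* = 0.505, edgeR). Without FS_CTR replicates 3 and 4 the Log2(FC) of *Timp1* was 0.12, the opposite direction. *Timp3*, which encodes a matrix-bound inhibitor that also acts on ADAM17, had 10.1, 6.27, 2.53 and 2.81 CPM in FS_DSS replicates 1 to 4 and 14.7, 6.67, 2.72 and 4.49 CPM in FS_CTR replicates 1 to 4. Its libraries ran by replicate number, with number 1 the highest in both groups and number 3 the lowest in both. Between same-numbered libraries the log2 difference of FS_DSS over FS_CTR was -0.54, -0.09, -0.10 and -0.68 for numbers 1 to 4. The Log2(FC) of *Timp3* was -0.42 (standard error 0.58, adjusted *p* = 0.674, edgeR), and without FS_CTR replicate 1 it was 0.21.

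Levels of different genes were compared as CPM per kb of the longest annotated transcript. The order, from the highest mean over all libraries, was *Mmp15*, *Mep1b*, *Mmp14*, *Mep1a*, *Timp2*, *Mmp7*, *Timp3*, *Timp1* and *Reck*. *Mmp15* had 117 ± 11.8 CPM per kb under FS_DSS and 101 ± 20.3 under FS_CTR, and *Mep1b* had 82.7 ± 17.1 under FS_DSS and 101 ± 24.3 under FS_CTR (SD, n = 4), so these neighbours lay within their spread under FS_CTR and further apart than it under FS_DSS. *Mmp14* had 59.7 ± 13.5 CPM per kb under FS_DSS and 38.9 ± 4.56 under FS_CTR, and *Mep1a* had 38.6 ± 16.9 under FS_DSS and 45.7 ± 4.55 under FS_CTR, so their order differed between the supernatants. *Timp2* had 34 ± 13.8 CPM per kb under FS_DSS and 19.3 ± 1.44 under FS_CTR, and *Mmp7* had 9.87 ± 3.98 under FS_DSS and 33.7 ± 24.2 under FS_CTR, so their order differed too, within the spread of *Mmp7* under FS_CTR. *Timp3* (1.13 ± 0.742 under FS_DSS and 1.49 ± 1.1 under FS_CTR) and *Timp1* (0.466 ± 0.182 under FS_DSS and 0.663 ± 0.300 under FS_CTR) lay far below. With the mean transcript length in place of the longest, *Mep1b* came first and *Mmp15* second, and the rest of the order was as given.

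Ratios of counts within a library do not depend on how libraries are scaled. The log2 ratio of *Mep1a* to *Mep1b*, the 2 subunits of one protease, was -0.55, -0.47, -1.03 and -1.25 in FS_DSS replicates 1 to 4 and -0.40, -0.33, -0.97 and -1.29 in FS_CTR replicates 1 to 4. It separated numbers 1 and 2 from numbers 3 and 4 under both supernatants and differed between the group means by -0.07, far less than its SD of 0.38 under FS_DSS and 0.46 under FS_CTR. The log2 ratio of *Mmp14* to *Timp2* was 1.04, 0.95, 0.42 and 0.50 under FS_DSS and 1.18, 0.94, 0.51 and 0.82 under FS_CTR. Its means were 0.73 ± 0.31 under FS_DSS and 0.86 ± 0.28 under FS_CTR (SD, n = 4), so the ratio of this protease to the inhibitor that docks to it differed between the groups by -0.13, less than either SD. The log2 ratio of *Timp1* to *Timp2* was -7.28, -6.76, -7.72 and -7.18 under FS_DSS and -6.81, -6.18, -5.85 and -5.32 under FS_CTR, with means of -7.23 ± 0.39 under FS_DSS and -6.04 ± 0.62 under FS_CTR (SD, n = 4). Only FS_DSS replicate 2 lay above the lowest FS_CTR library, and the low counts of *Timp1* limit this ratio. No ratio to *Reck* was formed, since it was at 0 in some libraries.

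**Figure D4:**
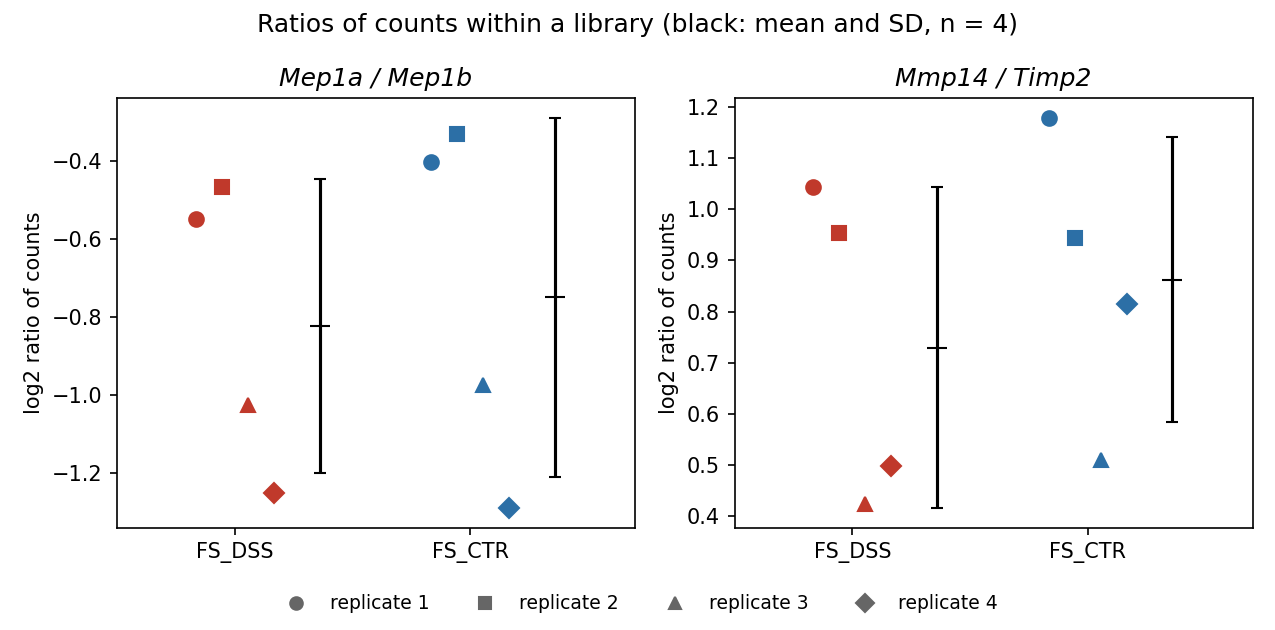
Log2 ratio of counts within each library (vertical axes) of *Mep1a* to *Mep1b* and of *Mmp14* to *Timp2*, for FS_DSS (red, left) and FS_CTR (blue, right) replicates 1 to 4, with black bars for the mean and SD (n = 4). In both panels replicates 1 and 2 lie above replicates 3 and 4 of the same group, and the group means differ by less than 1 SD.

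The pattern over the 8 libraries was described by Pearson's r of log2 CPM, where high values arise easily because each r rests on 8 libraries that share their composition and because the best of 12729 genes were taken. *Mmp14* and *Timp2* had an r of 0.877 with each other, and *Timp2* and *Mep1a* one of -0.91. These were the highest and the lowest r among pairs of the 8 tested genes. The group difference was not removed before r was formed. *Mmp14* and *Timp2* were both higher under FS_DSS, which by itself raises their r. The genes most like *Mmp14* were *Sh3bp4* (r = 0.993) and *Itgb1*, the integrin beta-1 gene (0.991), and those most like *Timp2* were *Plk2*, a polo-like kinase gene (0.990), and *Tcn2*, the transcobalamin gene (0.988). For *Mmp7* they were *Jade2* (0.990) and *Acss1*, a mitochondrial acetyl-CoA synthetase gene (0.983), and for *Mmp15* they were *Abcb11*, a bile salt transporter gene (0.988), and *Fosl2*, an AP-1 gene (0.981). For *Mep1a* they were *Ckb*, the brain-type creatine kinase gene (0.985), and *Cutal* (0.981), and for *Mep1b* they were *Anks4b*, a gene of brush border assembly (0.985), and *Clcn2*, a chloride channel gene (0.985). *Timp1* was most like *Sh3bgrl3* (0.985) and *Msto1* (0.984), and *Timp3* most like *Golm1* (0.972) and *St6galnac4* (0.967).

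Most other matrix metalloprotease genes were not detected or scarce. Of 20 listed, 19 were in the table and 5 passed the filter, and 0 of the 5 met the thresholds of the study. *Mmp11* had a Log2(FC) of 0.28, *Mmp12* of 0.04, *Mmp23* of -0.60, *Mmp24* of 0.45 and *Mmp28* of 0.32, none with an unadjusted *p* under 0.05. Without FS_CTR replicates 3 and 4 *Mmp11*, the stromelysin-3 gene, met the thresholds at 0.66. *Mmp23* (0.92) and *Mmp28* (-0.02) then had the opposite direction, while *Mmp12* (0.06) and *Mmp24* (0.54) kept theirs. *Mmp1b*, *Mmp3* and *Mmp16* were at 0 in all libraries, and *Mmp2* and *Mmp9*, the gelatinase genes, were under the filter. All 19 together summed to 20.9 to 25.7 CPM under FS_DSS and 18.3 to 20.2 CPM under FS_CTR. Among the other astacins *Bmp1*, the procollagen C-proteinase gene, was the one that passed the filter (0.34), and among 5 further inhibitor genes *Tfpi2* (-0.48) and *Fetub*, which encodes an astacin inhibitor (0.01), passed it.

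Proteases linked to the activation of these proenzymes were counted next, among them proprotein convertases and the activators of plasminogen. Of 8 genes, 7 passed the filter, with 4 positive and 3 negative Log2(FC) values and a median of 0.57 against -0.021 over all genes, and this median was 0.20 without FS_CTR replicates 3 and 4. *Furin*, whose product cuts the propeptides of membrane-type matrix metalloproteases, had 226, 222, 188 and 214 CPM in FS_DSS replicates 1 to 4 and 179, 161, 114 and 118 CPM in FS_CTR replicates 1 to 4. Its values did not overlap, which held for 7.41% of all genes on the higher side. Its Log2(FC) was 0.57 (adjusted *p* = 0.0958, edgeR), just under the fold threshold, and 0.32 without FS_CTR replicates 3 and 4. *Plat* and *Plau*, the plasminogen activator genes (1.77 and 0.83), and *Pcsk6*, a further proprotein convertase gene (0.60), met the thresholds of the study on the higher side, beside 2.56% of all genes. Without FS_CTR replicates 3 and 4 *Plat* alone met them (1.99), with *Pcsk6* at 0.20 and *Plau* at 0.83. *Hpn*, which encodes the membrane serine protease hepsin, met them on the lower side (-1.33), at means of 0.252 CPM under FS_DSS and 0.642 CPM under FS_CTR, and did not meet them without these 2 libraries (-1.37). *Plg*, the plasminogen gene, did not pass the filter.

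Partners of MT1-MMP and its surface substrates numbered 8, all of which passed the filter, with 6 positive and 2 negative values and a median Log2(FC) of 0.29. The integrin gene *Itgb1* (0.61) and *Cd44*, the hyaluronan receptor gene (0.71), met the thresholds of the study on the higher side. On that side 2.56% of all genes met them. Without FS_CTR replicates 3 and 4 *Cd44* (0.80) met the thresholds and *Itgb1* (0.52) did not. *Sdc1*, which encodes syndecan-1 (0.38), had an unadjusted *p* under 0.05 below the fold threshold, and *Bsg*, which encodes basigin, an inducer of matrix metalloproteases, had one in the lower direction (-0.34). Among 12 genes of AP-1 and ETS factors, which bind promoters of this family, 9 had positive and 3 negative values, with a median of 0.24. *Fosb* (1.00) met the thresholds, and without FS_CTR replicates 3 and 4 *Fosb* (1.26) and *Fosl1* (0.72) did. *Junb* (0.36), *Fos* (0.28) and *Ets1* (0.51) had unadjusted *p* under 0.05 with smaller changes.

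Genes of matrix proteins that these enzymes cut were counted last. All 13 passed the filter, 11 with a positive and 2 with a negative Log2(FC), and their median was 0.55. At the thresholds of the study 4 were higher and 0 lower, beside 2.56% and 6.46% of all genes, and 2 were higher without FS_CTR replicates 3 and 4. The collagen IV genes *Col4a1* (0.91) and *Col4a2* (0.87) were among the 4 and were the 2 that met the thresholds without those libraries (0.63 and 0.71), and *Lama3* (0.52), a laminin chain gene, had an unadjusted *p* under 0.05 below the fold threshold. Summed over the 13 genes the level was 4842 to 7265 CPM under FS_DSS and 3088 to 4659 CPM under FS_CTR, which did not overlap. Taken one by one, only 2 of the 13 did not overlap, *Col4a1* and *Col4a2*, beside 7.41% of all genes on the higher side. The sum was led by *Fn1*, the fibronectin gene (mean of 2076 CPM over all libraries). Its values overlapped, with 1769 CPM in FS_DSS replicate 2 and 2256 CPM in FS_CTR replicate 1.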

How the data were processed

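The authors made stranded, paired-end libraries of 4 samples per group and quantified them with Salmon 1.10.1 on a transcriptome of GRCm39. The deposited estimated counts are whole numbers without normalization. The authors' own DESeq2 1.36.0 normalization is not part of them. Which release of the transcriptome and which strand setting were used is not given in the sources used here. Exons of *Timp2* overlap exons of another annotated gene on the same strand, *Cep295nl*. Exons of *Mmp7*, *Mmp14* and *Timp3* overlap exons of another annotated gene on the opposite strand. Groups and replicate numbers came from the labels, and every column was mapped. The genes and lists were chosen with earlier results of these data known.

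Counts were fitted in R 4.3.3 with edgeR 4.0.16 (TMM, filterByExpr, quasi-likelihood F test, condition as the only term) with Benjamini-Hochberg adjustment over 12729 of 29234 genes. CPM used TMM-scaled sizes, the log2 CPM a prior count of 2, and the standard error is an approximation, the size of Log2(FC) over the root of the F statistic. Totals per library were 18968416 to 27035243 counts, and no pair of libraries of a group agreed within sampling noise. The rule for named genes was the 9 genes, in each list up to 4 genes per direction with the smallest unadjusted *p* under 0.05, the most abundant marker of each other cell type and the 2 genes with the highest r to each of the 8 tested genes. *Lyz1* falls under it as the most abundant Paneth marker. Genes named as examples of a list, at 0, under the filter or without a call, and *Fn1*, were added after their values were seen. One gene that the rule takes is not reported here. Gene spans and transcript lengths came from GENCODE M39 (GRCm39) by symbol, and promoter windows from RefSeq (GRCm38.p6). Figures were made with Python 3.11.15 and matplotlib 3.10.9. The edgeR step was tested on simulated data.

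Alternatives were DESeq2 size factors or library totals as the scaling, no filter or a minimum of 10 counts per sample, DESeq2 1.42.0, limma-voom (limma 3.58.1), a block for the replicate number, omission of each library, FS_CTR replicates 3 and 4 left out together, no fold threshold and the mean transcript length. After subtraction of the group means, libraries that share a number correlated at 0.352, 0.221, 0.154 and 0.226 for numbers 1 to 4. As each exceeds 0.1, the numbers were treated as pairs, in the fit with a block only. Some unlike numbers exceeded 0.1 as well. FS_DSS replicate 1 with FS_CTR replicate 2 gave 0.142, and FS_DSS replicate 4 with FS_CTR replicate 3 gave 0.188. These values therefore do not separate pairs of single numbers from a split of numbers 1 and 2 against 3 and 4. The pairing comes from the data alone, since no source says what the numbers stand for.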

Additional observations from a re-analysis of the deposited data

How the results depend on the processing

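Leaving out one library at a time gave between 0 and 1 called genes higher (1 without FS_CTR replicate 1) and 0 lower by edgeR, between 0 and 2 higher and 1 lower at the thresholds of the study (1 higher without FS_CTR replicate 3, 0 without FS_DSS replicate 4), and 2 higher and between 0 and 1 lower without overlap (1 lower, *Mmp7*, without FS_CTR replicate 4 or FS_DSS replicate 1). DESeq2 called 2 higher and 1 lower. Over all genes, 246 of 12922 were higher at the thresholds of the study without FS_CTR replicate 3, and 178 of 12883 without FS_DSS replicate 4. Without FS_CTR replicates 3 and 4 together, 1 was higher and 1 lower at these thresholds. Over all 13126 genes of that fit, 376 were higher and 702 lower. In the same fit 3 were higher and 1 lower without overlap. How many of all genes did not overlap was not counted for fits with fewer libraries. The Log2(FC) turned positive for *Mep1a* (0.054) and *Mep1b* (0.12) with library totals alone, which moved the median of all genes to 0.31 and gave 3 genes higher at the thresholds of the study and 3 without overlap (*Mmp15* added at 0.60), for *Mep1b* (0.035) and *Timp1* (0.12) without FS_CTR replicates 3 and 4, and for *Timp3* without FS_CTR replicate 1 (0.21, the upper end of a range over single omissions whose lower end was -0.90). The causes were not tested. With the replicate number as a block, the pairing brought 0 of the 8 genes past an edgeR adjusted *p* of 0.05: *Mmp7* had a Log2(FC) of -1.58 (0.0544), *Timp2* of 0.73 (0.0836) and *Mmp14* of 0.60 (0.0865), while it called 68 of all genes higher and 179 lower. Of the other values of Log2(FC) of the 8 genes, 119 kept their direction and side of the threshold and 4 gained a call. Counts per library limit *Reck* and *Timp1* most.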
